A study of Mus musculus with 8 samples.

Results

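Veph1 (ventricular zone expressed PH domain-containing 1) is 1 of 21887 mouse protein-coding gene loci examined for methylated lysine 4 of histone H3 (H3K4me) in the embryonic cortex. Its span lies on chromosome 3 from 66053558 to 66296974 (GRCm38, minus strand), and the locus described here adds 10 kb on either side, 263.4 kb in all. The gene was chosen by a measured value, the p of the difference between genotypes in the length of its locus under peaks, which was the smallest of the 14941 loci with enough coverage to be fitted. For that reason every difference between genotypes within the locus is given as a description, without a test. The peaks that overlap the locus numbered 13 and 19 in cKO replicates 1 and 2 and 13 and 12 in WT replicates 1 and 2.

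The libraries were made by ChIP-seq, in which an antibody recovers DNA wrapped on a modified histone, from lysates of the whole cortex of mouse embryos at E15.5. The cKO embryos carried floxed Prdm16 alleles and the Emx1Ires-Cre driver (Emx1Ires-Cre; Prdm16flox/flox, 2 libraries), and the WT embryos carried the floxed alleles with no Cre in the label (Prdm16 flox/flox, 2 libraries). Both genotypes therefore share the floxed alleles. Emx1-Cre acts in progenitors of the dorsal telencephalon and their descendants. A whole cortex lysate also holds interneurons, vessels, microglia and other cells that this driver leaves intact. A change of the mark per cell and a change in the share of marked cells therefore cannot be told apart. The labels do not say whether replicates came from separate embryos or from pools.

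Veph1 encodes a protein with a pleckstrin homology domain, a fold that binds membrane phosphoinositides, and its name comes from its expression in the ventricular zone, the layer of dividing radial glia that lines the ventricles. Its Drosophila orthologue, melted, recruits the insulin pathway regulators FOXO and Tsc1 to the cell membrane and acts opposite the Hippo kinase Warts when photoreceptor types are chosen. The antibody is catalogued for monomethylated lysine 4, a mark found at enhancers and at the edges of active promoters. Prdm16, the deleted gene, encodes a zinc-finger transcriptional regulator of radial glia.

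Peaks reached the start of Veph1 in all 4 libraries, and they differed in how far they ran past it. The RefSeq window of 250 bases before and 50 bases after the start site (chr3:66296788-66297087, minus strand, GRCm38.p6, start site at 66296837) is shown because a peak edge falls inside it. Capitals mark the 183 bases under a peak in all 4 libraries, and the 117 lower-case bases were left out by WT replicate 1 alone.
Veph1 promoter: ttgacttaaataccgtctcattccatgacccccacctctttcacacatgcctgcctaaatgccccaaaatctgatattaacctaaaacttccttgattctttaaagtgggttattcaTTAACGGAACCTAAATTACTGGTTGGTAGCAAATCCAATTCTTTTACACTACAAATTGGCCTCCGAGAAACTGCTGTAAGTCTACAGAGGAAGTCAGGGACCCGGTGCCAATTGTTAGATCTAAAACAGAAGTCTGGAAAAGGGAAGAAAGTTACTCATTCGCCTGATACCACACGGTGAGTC

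The window has 6 CpG dinucleotides and 41.7% G and C, where the median of 32851 RefSeq promoter windows of the same length is 7 CpG and 52.7%. CCAAT, the box bound by NF-Y, occurs 3 times when both strands are read, with first bases at positions −99, −79 (reverse strand) and −26, counting the start site as 0. The NFI half-site TTGGC occurs at −78 and, on the reverse strand, at −27, and each of these overlaps a CCAAT match by all but 1 base. CANNTG, the E-box, occurs at −207 and at −25, the second also overlapping the CCAAT match. CCAAT was found in 37.4% of all windows, TTGGC in 46.7% and CANNTG in 72.3%. TATAAA, found in 13.6% of windows, and GGGCGG, found in 35.7%, are not among the letters of this window.

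A second gene lies inside the first. Ptx3, which encodes the secreted pattern recognition protein pentraxin 3, spans chromosome 3 from 66219887 to 66225806 on the opposite strand, so peaks there belong to both loci and cannot be assigned to either gene. Its start window (chr3:66219637-66219936, plus strand) is shown for the same reason, with capitals for the 251 bases under a peak in all 4 libraries and lower case for the 49 bases left out by WT replicate 2 alone.
Ptx3 promoter: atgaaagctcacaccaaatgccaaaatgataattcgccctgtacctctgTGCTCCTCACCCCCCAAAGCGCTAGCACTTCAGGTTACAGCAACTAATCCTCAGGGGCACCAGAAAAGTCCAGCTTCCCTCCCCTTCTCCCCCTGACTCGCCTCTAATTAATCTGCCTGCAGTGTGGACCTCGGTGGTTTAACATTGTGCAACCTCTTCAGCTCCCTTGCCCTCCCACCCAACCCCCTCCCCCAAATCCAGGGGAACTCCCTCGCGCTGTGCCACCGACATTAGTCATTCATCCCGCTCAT

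The deposited files are lists of broad peaks, 1 per library, with no read counts, so sequencing depth is unknown. The cKO lists covered 148 and 166 Mb of the genome and the WT lists 130 and 114 Mb, a ratio of 1.29 between the means, and every measure below inherits this difference in how much was called. Radial glia and dorsal cortex markers had medians of 53.5% to 57.6% of the locus under peaks in cKO and 47.2% to 48.6% in WT. Microglia markers had 4.53% to 5.13% in cKO and 4.04% to 4.68% in WT. Endothelial and pericyte markers had 8.40% to 8.76% in cKO and 3.14% to 7.90% in WT. Interneuron markers had 22.8% to 27.7% in cKO and 17.5% to 19.0% in WT, and those of intermediate progenitors 59.7% to 60.4% in cKO and 54.9% to 59.7% in WT. Projection neuron markers had 53.2% to 58.5% in cKO and 52.4% to 55.4% in WT, and those of meninges 4.13% to 5.34% in cKO and 3.65% to 4.70% in WT. Erythroid markers had 13.2% to 13.4% in cKO and 8.54% to 9.69% in WT, and those of the choroid plexus 4.35% to 5.17% in cKO and 2.39% to 3.06% in WT. Of the markers checked, Alas2 (erythroid) and Folr1 (choroid plexus) had no peak in any library. The part of cell composition in the values below was not tested.

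Called peaks extended over more of the Veph1 locus in both cKO libraries. The covered length was 36.9 kb in cKO replicate 1 and 37.5 kb in cKO replicate 2, against 16.8 kb in WT replicate 1 and 16.1 kb in WT replicate 2. The means were 37.2 kb ± 0.454 in cKO and 16.5 kb ± 0.527 in WT (SD, n = 2 each), or 14.1% ± 0.172 and 6.25% ± 0.200 of the locus. The gap of 20.7 kb between the genotypes was wider than the spread between replicates, which the choice of the gene for its small p favours. The ratio of 2.26 stood beside 1.29 for the whole genome. Both cKO values exceeded both WT values, as they did in 59.8% of the loci tested for plain covered bases and in 17.3% after each library was centred on its median. Nearly all covered bases lay in the gene span, 35.4 and 36.2 kb in cKO and 16.1 and 15.6 kb in WT.

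On the scale used to choose the gene, log2(covered bases + 500) centred on the library medians, the Veph1 difference was 0.77 ± 0.11 (SE, 2 libraries per genotype), where the median locus stood at −0.038. Its limma p of 0.000144 ranked 1 of 14941 loci and gave an adjusted p of 0.407, shared by 126 loci. With limma and Benjamini-Hochberg adjustment, 0 loci were called higher (0.0%) and 0 lower (0.0%) in cKO at a threshold of 0.05. At an unadjusted p under 0.05, 830 loci (5.56%) were higher and 663 (4.44%) lower. With 1 library left out, the limma adjusted p of Veph1 was 0.692 without cKO replicate 1, 0.923 without cKO replicate 2, 0.0448 without WT replicate 1 and 0.0461 without WT replicate 2, with differences of 0.69, 0.84, 0.70 and 0.84 in that order. Those fits have a single library on one side and use the values that chose the gene, so none of them is support. The rank by p was again first in 4 of 20 alternatives, and was 25 without cKO replicate 1, 84 without WT replicate 1 and 184 when the variance was not let follow the mean. By size alone the difference was exceeded at 658 loci, whose median covered length was 2.13 kb. None of those 658 was among the 777 other loci with at least as many covered bases as Veph1. That follows in part from the choice of the gene. A larger difference at a locus with as much coverage would tend to have a smaller p.

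**Figure D1:**
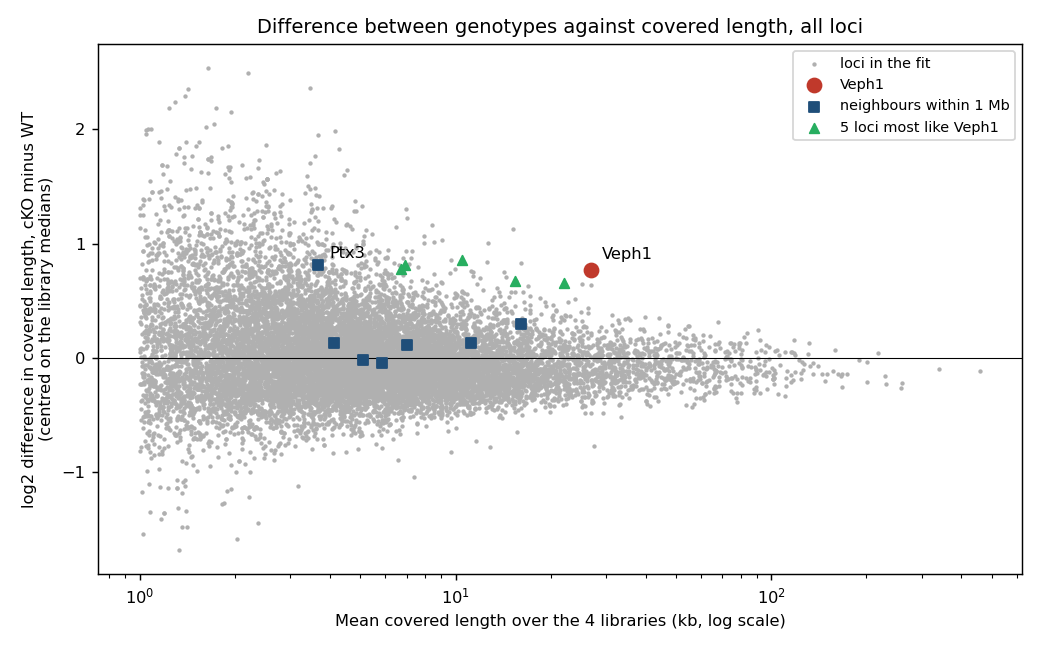
Each grey point is 1 of 14941 gene loci, with mean covered length over the 4 libraries on a log scale (kb) against the centred log2 difference in covered length, cKO minus WT. Veph1, at 0.77, stands above all 777 other loci with at least as many covered bases, and its choice for a small p favours that place. Neighbours of Veph1 other than Ptx3 lie between −0.040 and 0.30.

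Averaged over the 4 libraries, the covered share of Veph1 was near the median of all loci and above that of long loci. This mean share was 10.2%, near the median of 9.77% over all loci in the fit, and 7190 loci had a larger share. By genotype the share of Veph1 was 14.1% in cKO and 6.25% in WT, so its average includes the difference that chose the gene. Among the 1078 loci of at least 200 kb the median share was 5.90%, and Veph1 ranked 29 by its difference. Within the locus the peaks of the 4 libraries joined into 18 intervals, of which 8 held a peak in every library, 1 in both cKO libraries alone, 2 in a mixture of cKO and WT libraries, and 7 in a single library, which was a cKO library each time. The 8 intervals marked in every library held 17.0 kb of the 20.7 kb difference between genotypes (82.2%). The interval found in both cKO libraries alone held 4.99% of the difference, and the 7 found in a single cKO library held 8.85%.

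**Figure D2:**
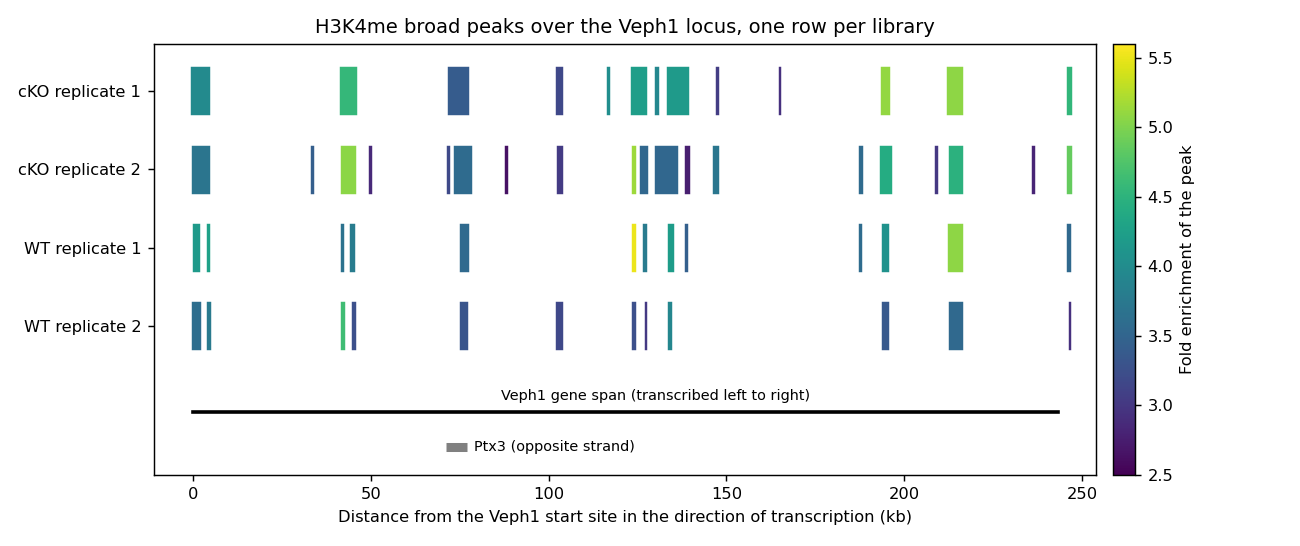
Broad peaks in each of the 4 libraries, placed by distance from the Veph1 start site (kb) in the direction of transcription and coloured by the authors' fold enrichment; the black line is the Veph1 span and the grey bar Ptx3. Of the 18 intervals, 8 carry a peak in every row, and 7 others carry a peak in a single cKO row. In 7 of those 8 both cKO rows have more bases under peaks than both WT rows, as at the start site and near 44 kb.

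At the start of the gene a pair of WT peaks corresponded to 1 broad cKO peak. The cKO peaks were 5078 bp wide in replicate 1 and 4818 bp in replicate 2, and ran from upstream of the start site to 4.58 and 4.545 kb into the gene. In WT replicate 1 a peak of 1846 bp over the start site was followed by 1 of 560 bp, and in WT replicate 2 the widths were 2162 and 676 bp. Fold enrichment there, the authors' value over the caller's background, was 3.97 and 3.70 in cKO, and its higher value per library was 4.27 and 3.77 in WT. The cKO peaks at the start were thus wider without a higher fold, but each fold is a single value for a whole peak. The wide and the short peaks were therefore not compared over the same bases.

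Further into the gene, 41.3 to 45.8 kb from the start site, the pattern of widths was the same. A single peak of 4501 bp in cKO replicate 1 and of 3876 bp in cKO replicate 2 lay over a pair of peaks of 1269 and 513 bp in WT replicate 1 and of 962 and 964 bp in WT replicate 2. Here the fold enrichment was 4.56 and 5.06 in cKO, against at most 3.78 and 4.63 in WT. At each place both cKO values of covered bases exceeded both WT values, as in 40.9% of intervals with peaks in all 4 libraries over the genome.

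The largest difference in covered bases lay in the middle of the gene. Between 130 and 140 kb from the start site, peaks covered 6472 bp in cKO replicate 1 and 7157 bp in cKO replicate 2, against 1867 bp in WT replicate 1 and 883 bp in WT replicate 2, a ratio of 4.96 between the means. Beside it, between 123 and 128 kb, 4293 and 2656 bp were covered in cKO and 1768 and 1161 bp in WT. These neighbouring intervals supplied 5.44 kb and 2.01 kb of the difference. The highest fold of any WT peak in the locus, 5.51 in WT replicate 1, was in the second of them, where cKO replicate 2 had 5.14 and cKO replicate 1 had 4.23.

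The interval over Ptx3, 71.5 to 78.2 kb from the Veph1 start site, was wider in cKO as well. Peaks covered 5559 and 5093 bp of it in cKO and 2101 and 1969 bp in WT. All 4 libraries had a peak over the first part of Ptx3, and the cKO peaks went on over most of that gene, 5210 and 3883 bp of its 5920 bp span, against 1813 and 1768 bp in WT. These were weak peaks, with a highest fold of 3.39 and 3.57 in cKO and 3.56 and 3.32 in WT. With the Ptx3 gene and 10 kb on either side of it taken out, an alternative chosen after seeing the data, the rest of the Veph1 locus still had 31.3 and 32.4 kb covered in cKO and 14.7 and 14.1 kb in WT.

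Toward the end of the gene the ratios of cKO to WT ran from 1.05 to 2.02. The interval with the widest WT peaks, 212 to 216 kb from the start site, had 4035 and 3725 bp in cKO and 3842 and 3539 bp under peaks in WT, so the values overlapped and the ratio was 1.05. Its fold enrichment was 5.07 and 4.48 in cKO and 5.07 and 3.55 in WT. An interval at 193 to 196 kb had 2158 and 3011 bp in cKO and 1713 and 1690 bp in WT, a ratio of 1.52. The last, past the end of the gene at 246 to 247 kb, had 1107 and 1156 bp in cKO and 763 and 358 bp in WT, a ratio of 2.02.

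Of the 8 intervals marked in every library, 7 had both cKO values above both WT values, where 40.9% of 53603 such intervals in the genome did. The median ratio of covered bases in cKO over WT was 2.14 over these 8 and 1.17 over the genome. Of the 8, 5 had a ratio above 2, compared with 7.46% in the genome. Since the gene was chosen for its covered length, these shares only describe how that length was made up.

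**Figure D3:**
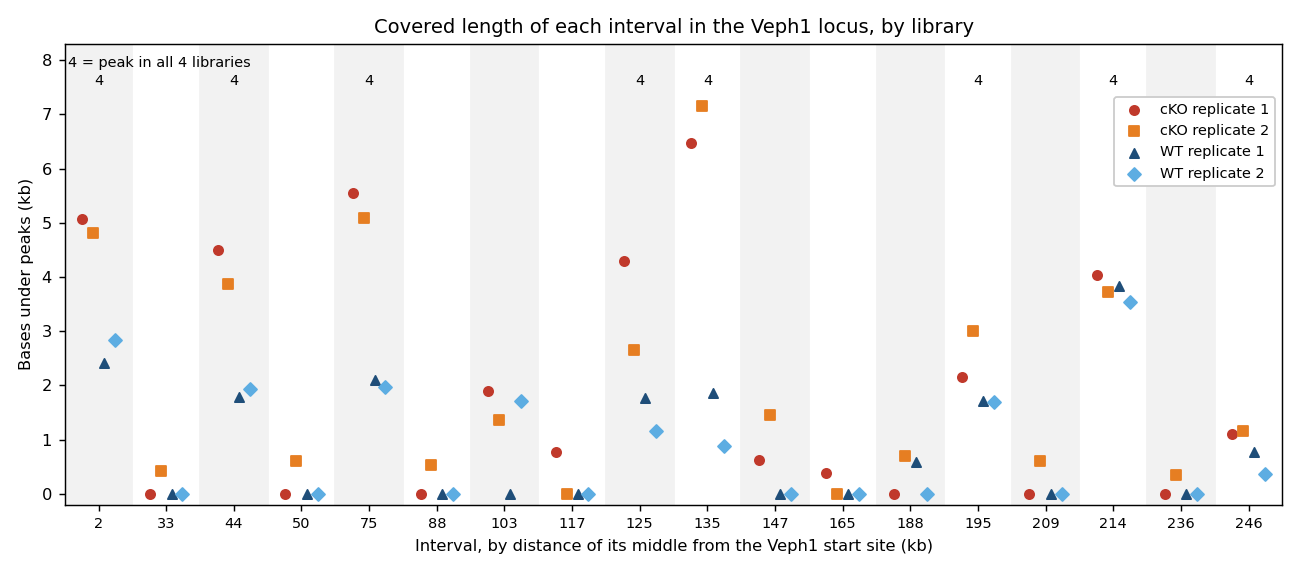
Bases under peaks (kb) in each of the 18 intervals of the Veph1 locus, ordered by distance from the start site, with 1 symbol per library. In 7 of the 8 intervals marked 4 the cKO symbols lie above the WT symbols, and at 214 kb they overlap.

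The joining of neighbouring peaks was counted over gaps of at most 5 kb. WT replicate 1 had 4 such gaps in the locus, of which cKO replicate 1 covered 4 from end to end and cKO replicate 2 covered 2. WT replicate 2 had 3, of which cKO replicates 1 and 2 covered 3 and 2. Over the genome, cKO peaks covered between 11.5% and 22.4% of such WT gaps. In the opposite direction, cKO replicate 1 had 2 gaps and cKO replicate 2 had 6, and WT peaks covered 0 of them, where the genome-wide share was between 2.15% and 3.92%.

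Read base by base, the peaks shared by both WT libraries lay almost wholly inside those shared by both cKO libraries. Of 12969 bases under peaks in both WT libraries, 12968 were also under peaks in both cKO libraries (99.99%), compared with 91.5% over the genome. Of the 28236 bases under peaks in both cKO libraries, 45.9% were under peaks in both WT libraries, compared with 70.4% over the genome, and 9811 bases had no peak in either WT library. No base was covered in both WT libraries and in neither cKO library. The regions of at least 200 bp covered in both cKO libraries that touch no WT peak numbered 2, on chromosome 3 from 66149301 to 66149921 (621 bp) and from 66166209 to 66166856 (648 bp). They lay 147 and 130 kb from the start site, and there were 0 regions of the opposite kind, compared with 5591 and 581 in the genome. The second lies in an interval with peaks in every library. In cKO replicate 2 it is the end of a 6034 bp peak that overlaps WT peaks elsewhere.

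The other intervals lacked a peak in at least 1 library. The 7 found in a single library were 339 to 771 bp long, and 2 of them came from cKO replicate 1 and 5 from cKO replicate 2. Fold enrichment in these 7 ran from 2.64 to 4.02. An interval at 102 to 104 kb had 1891 and 1358 bp in cKO, 0 bp in WT replicate 1 and 1722 bp in WT replicate 2. Another at 187 to 188 kb had 0 and 700 bp in cKO and 589 and 0 bp in WT, so neither followed genotype.

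The fold enrichment of the peaks differed less than their width. It is a single value for each whole peak, not a height measured over the same bases. The median fold enrichment of the peaks in the locus was 4.02 and 3.53 in cKO and 3.78 and 3.33 in WT, which overlap, and the medians of the whole lists were 3.99 and 3.81 in cKO and 4.15 and 3.72 in WT. Median width in the locus was 2158 and 1156 bp in cKO and 896 and 963 bp in WT. Over the whole lists the median width was 1243 and 1337 bp in cKO and 1171 and 1168 bp in WT, so the WT peaks of Veph1 were narrower than the WT median, while those of cKO replicate 1 were wider than their own list's median and those of cKO replicate 2 were not.

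Covered length was also read from the peaks with the lower q-values alone, as a description of the same peaks. Peaks with a −log10 q-value of at least 3 covered 28.4 and 31.4 kb in cKO and 12.1 and 5.39 kb in WT. At a value of at least 4 they covered 27.8 and 12.6 kb in cKO and 4.71 and 0.964 kb in WT. At 5 or more, 5 and 4 peaks remained in cKO and 2 and 0 in WT. The limma adjusted p of Veph1 was 0.659 at a threshold of 3 and 0.729 at a threshold of 4. A q-value also depends on depth, and the median −log10 q-value of the whole lists was 4.14 and 3.71 in cKO and 3.79 and 2.98 in WT.

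**Figure D4:**
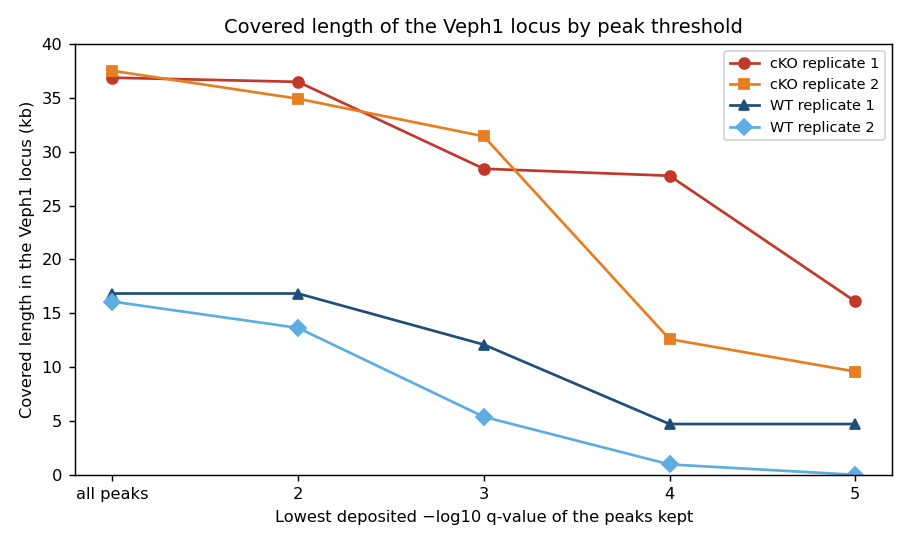
Covered length of the Veph1 locus (kb) when peaks below a given −log10 q-value are left out, with 1 line per library. The lines of cKO replicates 1 and 2 stay above those of both WT replicates at every threshold, and cKO replicate 2 drops to 12.6 kb at a threshold of 4.

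The size of the difference changed with how much of each list was kept. With every list cut to the same number of peaks, the locus had 33.97 and 32.9 kb covered in cKO and 16.8 and 16.1 kb in WT. With every list cut by p-value to the same covered length, it had 28.4 and 17.4 kb in cKO and 15.1 and 16.1 kb in WT. Then the ratio was 1.47, the centred difference fell to 0.46 ± 0.25 (SE; limma adjusted p = 0.658), and Veph1 ranked 2800 of 13344 loci by p. That setting keeps peaks of cKO replicate 2 down to a −log10 p-value of 5.40 and those of WT replicate 2 down to 2.83.

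The loci most like Veph1 were sought by the distance between the 4 centred values after the mean of each locus was removed, among 7012 loci with a mean of at least 5000 covered bases that do not overlap it. The nearest was Sox3, an X-linked SOXB1 factor of neural progenitors, at a distance of 0.028 on the log2 scale. Its locus had 9.36 and 9.58 kb covered in cKO and 4.09 and 3.79 kb in WT. Stxbp4, which encodes a syntaxin-binding protein, had 9.49 and 10.2 kb in cKO and 4.04 and 3.99 kb in WT.

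The other 3 were Map3k5, which encodes a stress-activated kinase, Syt1, the calcium sensor of synaptic vesicle release, and Kremen1, a receptor for Dickkopf inhibitors of Wnt signalling. Map3k5 had 14.5 and 15.3 kb in cKO and 6.05 and 5.98 kb in WT. Syt1 had 29.3 and 30.4 kb in cKO and 15.3 and 13.3 kb in WT. Kremen1 had 19.8 and 22.4 kb in cKO and 10.5 and 9.24 kb in WT. These 5 were picked for this likeness over 4 libraries, at distances up to 0.159, so their differences are not tested. With equal covered length those of Sox3 and Map3k5 turned to −0.64 and −0.22, that of Syt1 was 0.030, and those of Stxbp4 and Kremen1 were 0.58 and 0.72.

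Among the genes near Veph1 the largest difference was that of Ptx3. Apart from Veph1, 8 protein-coding genes lie within 1 Mb, and 7 of them had enough coverage to be fitted. Ptx3 had a log2 difference of 0.82 ± 0.23 (SE; limma adjusted p = 0.444), made by the interval it shares with Veph1. With lists of equal covered length it turned to −2.38, since the cKO peaks over Ptx3, with −log10 p-values of 4.19, 4.75 and 4.39, lie under the limits of 5.26 and 5.40 that this setting puts on the cKO lists.

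Kcnab1, which encodes a potassium channel beta subunit, came next with 16.95 and 22.97 kb in cKO and 13.4 and 10.9 kb in WT. Its difference was 0.30 ± 0.14 (SE; limma adjusted p = 0.508) and turned to −0.097 with equal covered length. The covered bases of its genotypes did not overlap, nor did those of Lekr1 and of Ccnl1. On this plain measure both cKO values exceeded both WT values in 59.8% of all loci in the fit. Lekr1 stood at 0.13 ± 0.16 and Ccnl1, a cyclin gene of RNA processing 91.5 kb beyond the end of Veph1, at −0.040 ± 0.21 (SE). Tiparp, which encodes a mono-ADP-ribosyltransferase, had 0.14 ± 0.41, the homeobox gene Shox2 −0.018 ± 0.35 and Rsrc1 0.12 ± 0.24, with values that overlapped between genotypes. The 5 last named had limma adjusted p-values between 0.777 and 0.986. Ssr3 was too thinly covered to be fitted, with 1537 and 545 bp in cKO and 555 and 608 bp in WT.

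**Figure D5:**
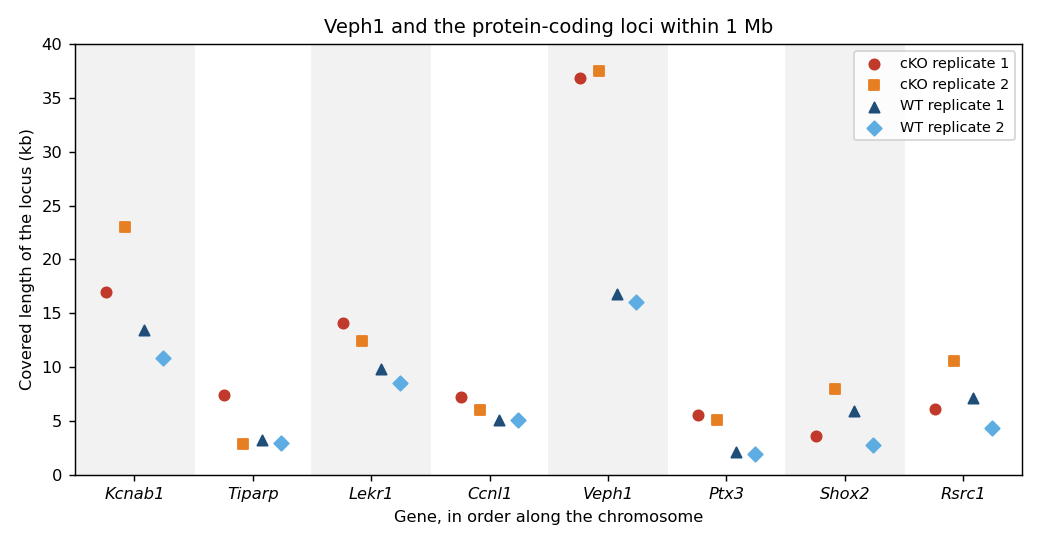
Covered length of each locus (kb) for Veph1 and the 7 fitted protein-coding loci within 1 Mb, in order along the chromosome, with 1 symbol per library. The cKO and WT symbols are widely apart at Veph1 (37.2 and 16.5 kb on average), and cross at Tiparp, Shox2 and Rsrc1.

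Genes of the pathways in which the fly orthologue acts, or in which human VEPH1 has been placed, were counted beside Veph1. None of the 25 insulin, FOXO and TOR genes, 21 Hippo genes or 18 TGF-beta receptor and SMAD genes passed limma's adjusted threshold. At an unadjusted p under 0.05 the insulin list had 1 higher and 2 lower in cKO, the Hippo list 1 and 1, and the TGF-beta list 0 and 2, where the shares over all loci were 5.56% higher and 4.44% lower. The median log2 differences were −0.040, −0.081 and −0.060 in that order, beside −0.038 over all loci.

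In the insulin list the largest positive differences were those of Irs4, an insulin receptor substrate (0.57 ± 0.44, SE), and Pdpk1, the kinase that activates AKT (0.56 ± 0.14). The largest negative ones were those of Pik3ca, a PI3-kinase catalytic subunit (−0.38 ± 0.17), and Irs2 (−0.35 ± 0.14). Among Hippo genes Stk4, an upstream kinase, had 1.22 ± 0.32 and the kinase activator Mob1b 0.40 ± 0.22, while the YAP target Ccn1 had −0.37 ± 0.15 and Yap1 itself −0.30 ± 0.16 (SE). In the TGF-beta list the receptor Tgfbr1 had 0.43 ± 0.33 and the SMAD corepressor Skil 0.34 ± 0.20, and the inhibitory SMADs Smad6 and Smad7 had −0.33 ± 0.093 and −0.29 ± 0.099. These 12 genes had limma adjusted p-values between 0.414 and 0.655. With 1 library left out the difference ran from 0.71 to 1.73 at Stk4, from 0.22 to 0.58 at Mob1b, from 0.075 to 0.60 at Skil, from −0.14 to 1.28 at Irs4 and from −0.078 to 0.94 at Tgfbr1. Without centring, the median over all loci moves to 0.35, and the 6 negative values here turn positive.

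Prdm16 itself, the deleted gene, did not show the Veph1 pattern. Peaks covered 171 and 182 kb of its locus in cKO and 154 and 144 kb in WT, a centred log2 difference of −0.14 ± 0.066 (SE; limma adjusted p = 0.518) with its sign changed in uncentred values (0.25) and in lists of equal covered length (0.16). The labels leave the deleted part of the gene unnamed, so these peaks give no check of the deletion.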

How the data were processed

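H3K4me ChIP-seq peak lists of 4 libraries were analysed; the 4 input libraries were not used here. The chromatin was native and cut with micrococcal nuclease, per the labels' protocols. The submitters' processing notes name FastQC, cutadapt, Bowtie2 2.2.8 and MACS2 2.1.1 with mm10, while the peak calling options were not given in the sources used here. Peaks were called per library, as the deposited files show. Besides coordinates the authors deposited a score, a fold enrichment (a ratio) and −log10 values of p and q for every peak, used only to describe, rank or filter peaks within a list.

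Gene spans and promoter windows are from RefSeq tables on GRCm38.p6. For each gene plus 10 kb the covered bases were counted and taken as log2(bases + 500). Loci averaging under 1000 bases were dropped, and library medians were subtracted. The fit was limma's (version 3.58.1, R 4.3.3; moderated variances with a trend, Benjamini-Hochberg adjustment), on 2 cKO and 2 WT libraries. Interval code ran in Python 3.11.15 with numpy 2.4.6 and pandas 2.3.3, and both steps were tested on simulated data. Adjusted p-values set each difference against a spread between these libraries that is partly borrowed from other loci through the trend. That spread may be technical. Veph1, the gene lists and the rules were chosen with earlier results of these data known. The genes named are Veph1, Prdm16, protein-coding genes within 1 Mb, the 5 loci most like Veph1 and, per list, the 2 most positive and 2 most negative members.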

Additional observations from a re-analysis of the deposited data

How the results depend on the processing

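The Veph1 difference was positive in all 20 alternatives, from 0.46 (equal covered length) to 1.85 (−log10 q-value of at least 4, chosen after seeing the data), and its limma adjusted p ran from 0.000235 to 0.923. Those alternatives re-use the libraries and values that chose the gene, so the constant sign is not support. With no filter on thin loci the difference was 0.70 (limma adjusted p = 0.000235), and 398 loci passed against 0. Loci without peaks then enter the variance estimate. Leaving out 1 library gave 0.69 to 0.84 and 0 to 98 calls, namely 98 without WT replicate 1, 8 without WT replicate 2 and 0 without either cKO replicate; the lone library is then assumed to vary like the others. With the replicate block Veph1 stood at 0.77 (limma adjusted p = 0.407), 0 loci passed, and the deviations of same-numbered libraries correlated at −0.096 across loci, so the numbers were not treated as pairs. Veph1 intervals with peaks in every library numbered 8, against 5 with equal covered length, 2 when 50% of the interval had to be covered, and 8 to 9 with 1 library left out. Regions covered in both cKO libraries that touch no WT peak numbered 2, or 3 with stricter peaks. List members at an unadjusted p under 0.05 numbered 8 with Ptx3 among the neighbours included, 23 without centring, 13 with no filter, 3 without a trend, 4 at a −log10 q-value of at least 4, and 6 to 12 with 1 library left out.

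Of 462 values of the 25 other genes named, 46 changed sign, none of them called, and the cause was not tested. With equal covered length these were Prdm16 (0.16), Ccnl1 (0.092), Kcnab1 (−0.097), Ptx3 (−2.38), Rsrc1 (−1.78), Tiparp (−0.18), Sox3 (−0.64), Map3k5 (−0.22), Yap1 (0.087), Tgfbr1 (−1.2) and Smad7 (0.0081). Without centring they were Prdm16 (0.25), Ccnl1 (0.34), Shox2 (0.37), Pik3ca (0.00064), Irs2 (0.031), Ccn1 (0.016), Yap1 (0.082), Smad6 (0.056) and Smad7 (0.089). Stricter peaks turned Rsrc1 (−0.15), a −log10 q-value of at least 3 Lekr1 (−0.048), Rsrc1 (−0.93) and Tiparp (−0.38), and of at least 4 Ccnl1 (0.92), Kcnab1 (−0.51) and Pdpk1 (−0.69). Equal numbers of peaks turned Rsrc1 (−0.63) and Tiparp (−0.44), 25 kb flanks Ccnl1 (0.011) and Shox2 (0.19), cyclic loess Ccnl1 (0.0040) and Shox2 (0.010), a mean of at least 5000 bases Ccnl1 (0.012) and Shox2 (0.034), and the gene span alone Tgfbr1 (−0.17). With 1 library left out Ccnl1 ran from −0.25 to 0.16, Lekr1 from −0.046 to 0.30, Rsrc1 from −0.17 to 0.39, Shox2 from −0.46 to 0.41, Tiparp from −0.56 to 0.83, Irs4 from −0.14 to 1.28 and Tgfbr1 from −0.078 to 0.94. With no filter 6 values passed the threshold, those of the 5 loci most like Veph1 and of Stk4. Depth is unknown, so a place without a peak is not shown to lack the mark.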
